A study of Mus musculus with 10 samples.

Results

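Integrins are adhesion receptors made of 1 alpha and 1 beta chain, and 10 integrin chain genes of CD8+ T cells were followed here through deletion of Dusp2 and through activation. They were chosen by name as rows of the deposited gene table: Itgal, Itgb2, Itga4, Itgae, Itgb7, Itgb1, Itga6, Itgav, Itga2 and Itga1. All 10 were found among the 57010 genes of the table, and all 10 passed the filter on low counts that left 18966 genes to test. An alpha and a beta chain pair in the endoplasmic reticulum, and only the pair reaches the cell surface. There it switches from a bent, inactive to an extended, ligand-binding form when talin and kindlin bind the tail of the beta chain. T cells use integrins to stop on vessel walls, to enter lymph nodes, gut and inflamed tissue, and to hold on to the cells they scan or kill.

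The cells were CD8+ T cells from the spleen, and RNA was read by bulk sequencing. Activated cKO libraries came from 3 mice of genotype Dusp2fl/fl-E8I-cre+/-, whose cells were kept for 24 h with anti-CD3/CD28 beads, a stand-in for antigen and co-stimulation. Activated control libraries came from 2 mice of genotype Dusp2fl/fl-E8I-cre-/-, treated in the same way. Rested cKO and rested control libraries came from the same 5 mice, with cells kept equally long without beads. Both genotypes thus carried the floxed Dusp2 allele, and the cKO mice alone carried cre, so an effect of cre itself cannot be told apart from the loss of Dusp2. E8I is a Cd8a enhancer that drives cre in CD8+ T cells. DUSP2 is a phosphatase that switches off MAP kinases. No age or strain background is stated in the labels. cKO mice 1 and 2 and control mouse 1 were male, and cKO mouse 3 and control mouse 2 were female. Sex coincides with the leading number of the mouse names, so that a sex difference and anything else that number marks cannot be told apart. For cKO mouse 3 the 2 sample titles disagree with the library names and with the genotype or treatment field, and the groups follow the names and the fields. Values without that mouse are given beside the calls and the larger differences that it changes.

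Library totals ran from 51203786 to 65135435 counts, so 3 counts, taken as the floor, stood for 0.0461 to 0.0586 CPM (the count scaled to a common library total). Dusp2 was at 57.6, 47.7 and 53.6 CPM in activated cKO libraries, against 299.9 and 303.8 CPM in activated control libraries. Rested cKO libraries held 24.3, 24.2 and 27.7 CPM of Dusp2, against 85.6 and 95.3 CPM in rested control libraries. Every cKO library was thus below every control library of its state, cKO mouse 3 included. Activated libraries held 365 to 473 CPM of Il2ra, the high-affinity interleukin-2 receptor chain, against 0.920 to 2.41 CPM in rested libraries, a split that puts both libraries of cKO mouse 3 with the state of their library names. Cd8a lay between 526 and 648 CPM in all 10 libraries. Of other cell types, summed B cell markers came to 233 to 288 CPM in activated and 273 to 355 CPM in rested libraries, of which Ighm alone made 229 to 284 CPM and 267 to 349 CPM, while Ms4a1 and Pax5 stayed at or below 0.102 CPM throughout. Summed markers of CD4 and regulatory T cells came to 62.4 to 95.98 CPM in activated and 18.4 to 27.4 CPM in rested libraries. Ctla4 made 37.04 to 51.3 CPM and 5.37 to 8.32 CPM of these sums, while Foxp3 stayed at or below 0.871 CPM and Cd4 at or below 1.197 CPM. With activation, averaged over both genotypes, Ctla4 was 6.39-fold, Zbtb7b 4.63-fold, Cd40lg 2.53-fold and Cd4 1.21-fold higher. Ikzf2 and Foxp3 were 1.15-fold and 1.06-fold lower. In rested cells Cd4 was 3.65-fold higher in cKO than in control cells (unadjusted p = 0.0024, adjusted p = 0.941, edgeR's quasi-likelihood test), and Cd40lg was 1.28-fold lower. Summed dendritic cell markers came to 54.8 to 79.1 CPM in activated and 69.3 to 112 CPM in rested libraries. Ccr9 and Cd74 together made most of these sums, while Flt3 and Xcr1 stayed at or below 0.169 CPM. Averaged over both genotypes, Cd74 was 42.1-fold higher and Ccr9 3.32-fold lower with activation, so the sums hide opposite changes. Zbtb46 was also higher in activated cells (adjusted p = 3.03e-11, edgeR's quasi-likelihood test). The part of such cells in the results below was not tested. Summed myeloid markers reached at most 18.2 CPM and summed erythroid and platelet markers at most 0.170 CPM. In bulk RNA, fewer cells that carry a transcript and less of it per cell cannot be told apart.

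Activation changed 9 of the 10 integrin transcripts. Averaged over both genotypes, 6 fell (Itga2, Itga1, Itga4, Itga6, Itgae and Itgb7) and 3 rose (Itgav, Itgb2 and Itgal), in edgeR's quasi-likelihood test at a threshold of 0.05, after adjusting p over all genes tested by the Benjamini-Hochberg method (such genes are said to be called). Itgb1, the beta chain shared by most of these alpha chains, was not called. Activation moved much of the transcriptome: 69.1% of all genes tested were called, 34.8% as higher and 34.3% as lower, so the count of 9 is to be read against a background that is itself large. Between the 5 activated and the 5 rested libraries 8 chains did not overlap at all, 6 lower and 2 higher, where 56.7% of all genes did not overlap, 25.1% lower and 31.5% higher. The median log2 fold change of the 10 chains was -1.39, beside -0.00381 over all genes. The falls were 2.46-fold to 5.49-fold, while none of the rises exceeded 1.25-fold.

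**Figure D1:**
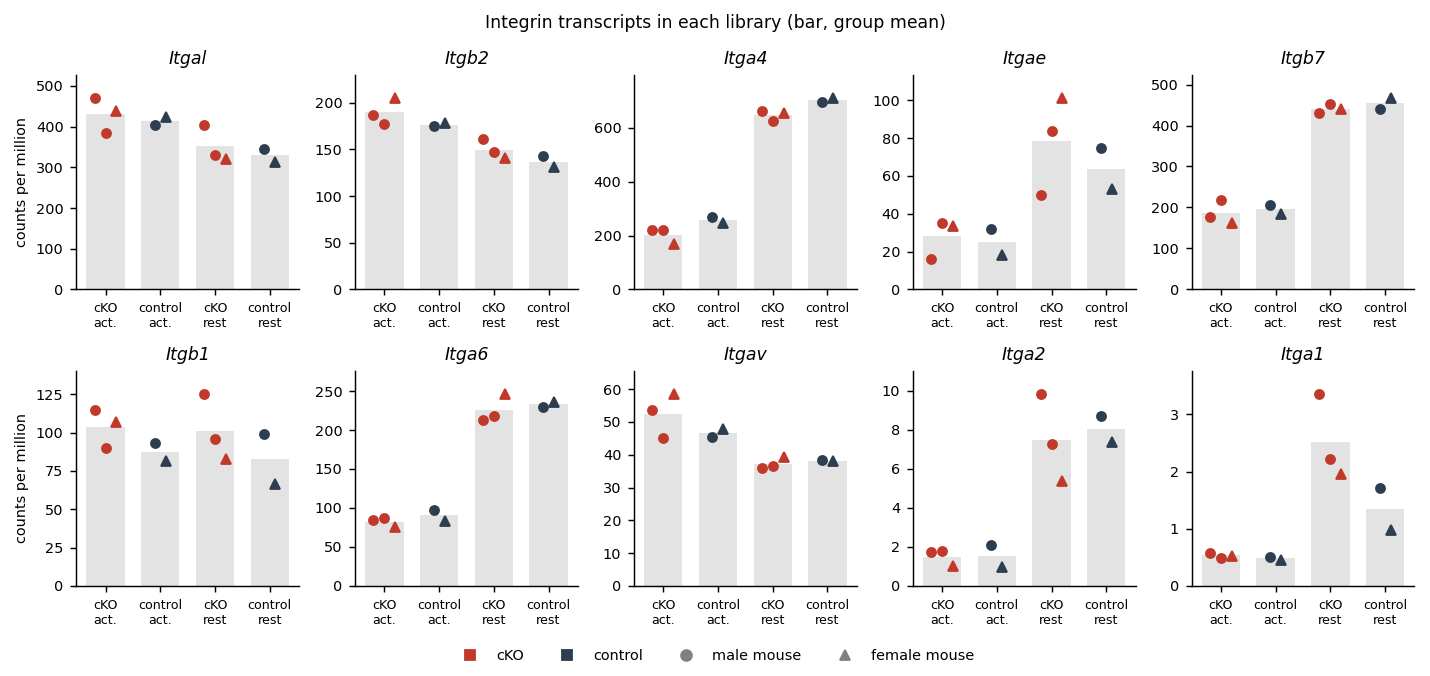
Level in CPM of each integrin transcript in each of the 10 libraries (points; circles, male; triangles, female) with group means (bars), in activated cKO, activated control, rested cKO and rested control cells. Itga4, Itgb7, Itga6, Itga2, Itga1 and Itgae stand lower in every activated than in every rested library, Itgb2 and Itgav higher, and Itgal and Itgb1 overlap between the states.

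LFA-1, the pair of Itgal (CD11a; chromosome 7, 126895432 to 126934310, plus strand, mm39) and Itgb2 (CD18; chromosome 10, 77366086 to 77401542, plus strand, mm39), binds ICAM proteins and holds the T cell to its target. Itgal was at 471, 384 and 437 CPM in activated cKO and 404 and 423 CPM in activated control libraries, against 404, 331 and 319.7 CPM in rested cKO and 346 and 313 CPM in rested control libraries. The 2 states overlapped, since the rested library of cKO mouse 1 was above the activated libraries of cKO mouse 2 and control mouse 1, but within each of the 5 mice the activated library was the higher one, by 0.21 to 0.45 on the log2 scale. Itgal rose by 0.25 on the log2 scale (SE 0.08; adjusted p = 0.0159, edgeR's quasi-likelihood test). The call was lost without either female, with 0.20 and adjusted p = 0.0744 once cKO mouse 3 was left out, and 0.20 and adjusted p = 0.131 once control mouse 2 was left out (edgeR's quasi-likelihood test). Itgb2 was at 187, 177 and 206 CPM in activated cKO and 175 and 178 CPM in activated control libraries, against 161, 147 and 141 CPM in rested cKO and 143 and 131 CPM in rested control libraries. All 5 activated libraries lay above all 5 rested ones. Itgb2 rose by 0.29 (SE 0.06; adjusted p = 0.000395, edgeR's quasi-likelihood test), and the 2 chains of LFA-1 therefore moved in the same direction and by a like amount.

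The alpha4 chain Itga4 (CD49d; chromosome 2, 79085770 to 79163467, plus strand, mm39) pairs with either of 2 beta chains. With Itgb7 (chromosome 15, 102124430 to 102140379, minus strand, mm39) it makes alpha4beta7, which binds MAdCAM-1 on gut vessels, and with Itgb1 it makes VLA-4, which binds VCAM-1 and fibronectin. Itga4 was at 221, 220.3 and 170.3 CPM in activated cKO and 267 and 245 CPM in activated control libraries, against 662, 624 and 655 CPM in rested cKO and 695 and 713 CPM in rested control libraries. The highest activated library held less than any rested library by a wide gap. Itga4 fell 3.10-fold (log2 fold change -1.63, SE 0.06; adjusted p = 8.19e-11, edgeR's quasi-likelihood test). Itgb7 was at 178, 218 and 162 CPM in activated cKO and 207 and 185 CPM in activated control libraries, against 431, 451 and 439.8 CPM in rested cKO and 441 and 468 CPM in rested control libraries. Here too the states stood far apart, and Itgb7 fell 2.46-fold (-1.30, SE 0.07; adjusted p = 3.17e-09, edgeR's quasi-likelihood test). Cerkl, on the other strand, overlaps the end of Itga4 and held at most 3.45 CPM in any library.

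Because the 2 chains of alpha4beta7 fell together and Itgav rose, the promoters of Itga4, Itgb7 and Itgav are shown, a choice made after the values were seen. They are the 250 bases before the start of each gene in RefSeq's GRCm38.p6, each written 5′ to 3′ on the strand of its gene, with the box CACCC or its complement GGGTG in capitals. The RefSeq table matched 6 of the 10 genes by symbol.
Itga4 (chr2:79255176-79255425, plus strand): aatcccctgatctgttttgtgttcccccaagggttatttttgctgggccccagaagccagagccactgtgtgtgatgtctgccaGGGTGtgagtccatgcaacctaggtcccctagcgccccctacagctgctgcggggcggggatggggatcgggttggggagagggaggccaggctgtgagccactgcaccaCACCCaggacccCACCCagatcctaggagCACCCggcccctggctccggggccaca
Itgb7 (chr15:102231936-102232185, minus strand): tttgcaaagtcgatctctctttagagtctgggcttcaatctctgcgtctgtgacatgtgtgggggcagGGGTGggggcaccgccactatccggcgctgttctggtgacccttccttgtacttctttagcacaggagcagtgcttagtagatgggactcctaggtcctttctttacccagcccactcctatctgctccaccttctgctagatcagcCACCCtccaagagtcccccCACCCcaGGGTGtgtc
Itgav (chr2:83724147-83724396, plus strand): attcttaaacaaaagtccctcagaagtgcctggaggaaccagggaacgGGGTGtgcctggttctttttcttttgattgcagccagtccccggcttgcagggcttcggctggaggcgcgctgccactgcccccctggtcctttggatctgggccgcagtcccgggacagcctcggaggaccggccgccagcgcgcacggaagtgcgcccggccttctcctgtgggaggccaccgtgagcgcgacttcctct
CACCC is the core bound by Krueppel-like factors. In either orientation it stood 4 times before Itga4 and 4 times before Itgb7, at 166, 56, 44 and 27 bases and at 182, 35, 16 and 9 bases before the start. It stood once before Itgav, at 202 bases. Of all 32851 promoters of the same length, 52.0% held it at least once and 2.14% at least 4 times. Itga1 and Itgb1 held 2 matches each and Itga2 held 1. The promoters of Itga4, Itgb7 and Itgav were 64.0%, 56.0% and 64.4% G and C, against a median of 52.4%. Another 8 motifs were searched in the same way on both strands. The SMAD letters CAGAC, present in 42.2% of all promoters, stood 1 time before Itga4, 2 times before Itgb7 and nowhere in the window of Itgav. They stood 3 times before Itga2, 3 times before Itgb1, which was not called with activation, and 1 time before Itga1. The RUNX letters TGTGGT, in 14.0% of all promoters, stood before Itga4 alone among the 6 genes. GGGCGG, a GC box in 32.7% of all promoters, stood before Itga4 and Itgb1. GGAA, the ETS core, was in all 6 and in 93.4% of all promoters. It stood 4 times before Itgav, Itga1 and Itgb1, and 1 time before Itga4, Itgb7 and Itga2. Of all promoters, 33.4% held it at least 4 times. CACCC is thus not the only motif whose count differed between Itgav and the 2 chains of alpha4beta7. TGANTCA (AP-1, 6.75% of all promoters), CACGTG (E-box, 6.02%), TGACGTCA (CRE, 1.55%) and an NF-kB motif (4.11%) were in none of the 6 windows. The ETS core can lie inside the NF-kB motif. A match says only that these letters are there.

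Itgae (CD103; chromosome 11, 72981409 to 73038272, plus strand, mm39) is the alphaE chain, which pairs with Itgb7 and binds E-cadherin on epithelium. It was at 16.4, 35.03 and 33.7 CPM in activated cKO and 32.0 and 18.01 CPM in activated control libraries, against 49.8, 83.9 and 101 CPM in rested cKO and 74.6 and 52.9 CPM in rested control libraries. Mice differed widely in Itgae: cKO mouse 1 and control mouse 2 were the lowest in both states. Within mice the fall was even, between 1.22 and 1.61 on the log2 scale in all 5. Itgae fell by 1.48 on the log2 scale (SE 0.37; adjusted p = 0.0148, edgeR's quasi-likelihood test). Leaving out 1 mouse ended the call in 3 cases, with adjusted p = 0.0538 (control mouse 1 out), 0.0655 (control mouse 2 out) and 0.0678 (cKO mouse 2 out) in edgeR's quasi-likelihood test. With each mouse as a replicate block the log2 fold change was -1.50 and the adjusted p 5.98e-09. Haspin, a gene within Itgae on the other strand, held 3.72 to 6.503 CPM, and whether reads were counted by strand is not given in the sources used here.

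Itgb1 (CD29; chromosome 8, 129412135 to 129459681, plus strand, mm39) is the beta chain of the VLA integrins, which bind collagens, laminins, fibronectin and VCAM-1. It was at 115, 89.7 and 107 CPM in activated cKO and 93.3 and 81.8 CPM in activated control libraries, against 125, 96.1 and 82.6 CPM in rested cKO and 99.3 and 66.6 CPM in rested control libraries. The states overlapped over most of their range. The log2 fold change was 0.01 (SE 0.13; adjusted p = 0.962, edgeR's quasi-likelihood test), -0.07 without cKO mouse 3, and within mice it was positive in the 2 females and negative in the 3 males. In a fit with a sex effect per state, chosen after the values were seen, the change of Itgb1 was 0.46 larger in females on the log2 scale (SE 0.24; adjusted p = 0.42, edgeR's quasi-likelihood test), where 0.891% of all genes were called. None of the other 9 chains was called there, with Itga6 nearest at -0.31 (SE 0.07; unadjusted p = 0.000553, adjusted p = 0.0531, edgeR's quasi-likelihood test). Itga4 followed at -0.27 (adjusted p = 0.103) and Itgb2 at 0.26 (adjusted p = 0.113, edgeR's quasi-likelihood test). The fit with a sex effect per state held no mouse term. It thus did not use the pairing of libraries by mouse, and its SEs include the spread between mice.

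The alpha partners of Itgb1 divided. Itga6 (CD49f; chromosome 2, 71575960 to 71688760, plus strand, mm39), a laminin receptor chain, was at 84.4, 87.4 and 75.3 CPM in activated cKO and 97.8 and 83.4 CPM in activated control libraries, against 213, 218 and 246 CPM in rested cKO and 229.9 and 236 CPM in rested control libraries. The states did not overlap, and Itga6 fell 2.78-fold (-1.48, SE 0.06; adjusted p = 1.69e-10, edgeR's quasi-likelihood test). Itgav (CD51; chromosome 2, 83554741 to 83637260, plus strand, mm39), which binds vitronectin and latent TGF-beta with its beta partners, was at 53.6, 45.2 and 58.5 CPM in activated cKO and 45.5 and 47.9 CPM in activated control libraries. Rested cKO libraries held 36.1, 36.5 and 39.3 CPM of Itgav, and rested control libraries 38.4 and 37.9 CPM. Every activated library lay above every rested one, and Itgav rose 1.25-fold (0.32, SE 0.06; adjusted p = 0.000199, edgeR's quasi-likelihood test). Among the 10 chains it was the one alpha chain outside LFA-1 that rose.

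Itga2 (CD49b; chromosome 13, 114969617 to 115068636, minus strand, mm39) and Itga1 (CD49a; chromosome 13, 115089632 to 115238500, minus strand, mm39) are the collagen-binding alpha chains and mark NK cells and memory or tissue-resident T cells. Itga2 was at 1.72, 1.77 and 1.01 CPM in activated cKO and 2.10 and 0.983 CPM in activated control libraries, against 9.84, 7.27 and 5.39 CPM in rested cKO and 8.72 and 7.36 CPM in rested control libraries. The states did not overlap, and its 5.49-fold fall (-2.46, SE 0.14; adjusted p = 2.89e-09, edgeR's quasi-likelihood test) was the largest among the 10 chains. Itga1 was the scarcest, with 28 to 34 counts per activated and 56 to 172 counts per rested library. That is 0.569, 0.496 and 0.532 CPM in activated cKO and 0.499 and 0.461 CPM in activated control libraries, against 3.36, 2.22 and 1.96 CPM in rested cKO and 1.72 and 0.972 CPM in rested control libraries. It fell 3.73-fold (-1.90, SE 0.20; adjusted p = 1.62e-06, edgeR's quasi-likelihood test). Pelo and Gm49395 lie within Itga1 on the same strand and held 9.75 to 19.9 CPM and 5.76 to 12.6 CPM, more than Itga1 itself, and both were higher in every activated than in every rested library. How reads in the shared stretch were assigned is not given in the sources used here. Markers of NK and innate-like lymphocytes summed to 99.3 to 185 CPM in activated and 202 to 287 CPM in rested libraries. Klrd1 made 57.3 to 91.3 CPM and 166 to 222 CPM of these sums, and Ncr1, which defines NK cells, stayed at or below 0.0708 CPM. Of 14 tested markers of this list 6 were called higher in activated cells (Klra4 3.79-fold, Klra3 2.38-fold, Zbtb16 2.36-fold, Klra7 2.05-fold, Klra9 1.99-fold and Eomes 1.83-fold). Another 3 were called lower (Klrb1c 3.09-fold, Klrd1 2.86-fold and Gzma 2.67-fold), where 34.8% of all genes were called higher and 34.3% lower. The part of such cells in the fall of Itga2 and Itga1 was not tested.

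**Figure D2:**
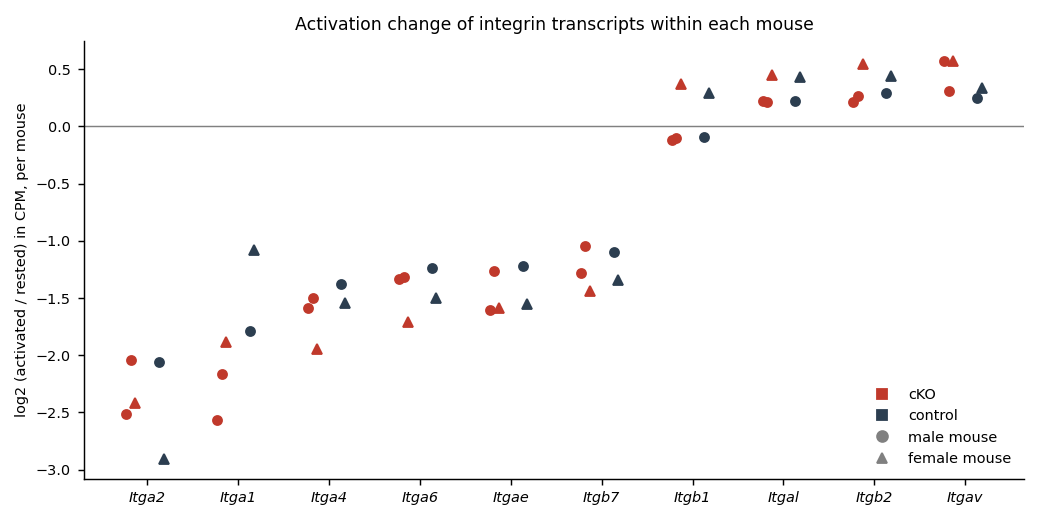
Log2 ratio of activated to rested CPM for each integrin transcript within each of the 5 mice (red, cKO; dark blue, control; circles, male; triangles, female), ordered by the fitted log2 fold change. All 5 mice lie below 0 for the 6 chains that fell and above 0 for Itgal, Itgb2 and Itgav, while Itgb1 lies above 0 in the females and below 0 in the males.

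Read within each genotype, activation gave much the same picture. In cKO cells 8 of the 10 chains were called (2 higher, 6 lower), where 63.4% of all genes were called (31.5% higher, 31.9% lower). Itgal, at 0.23 (SE 0.10; adjusted p = 0.0637, edgeR's quasi-likelihood test), and Itgb1 were not. In control cells 7 were called (2 higher, 5 lower), where 56.1% of all genes were called (28.5% higher, 27.6% lower), and Itgae (adjusted p = 0.0864, edgeR's quasi-likelihood test), Itgal (adjusted p = 0.0896) and Itgb1 were not. With each mouse as a replicate block, 9 chains were called in each genotype: Itgal then had adjusted p = 0.0154 in cKO and 0.0258 in control cells, and Itgae 7.76e-07 in control cells (edgeR's quasi-likelihood test). Some of the calls within a genotype hung on single mice. Without cKO mouse 3, whose titles conflict, Itgb2 in cKO cells was at 0.17 (adjusted p = 0.0637) and Itgae in cKO cells at -1.46 (adjusted p = 0.0929), and neither was called in edgeR's quasi-likelihood test. The call of Itgae in cKO cells was also lost without cKO mouse 2 (adjusted p = 0.135), control mouse 1 (0.0562) or control mouse 2 (0.0523), in edgeR's quasi-likelihood test. In control cells the calls of Itgav and Itgb2 were lost without control mouse 2 (adjusted p = 0.333 and 0.206, edgeR's quasi-likelihood test), those of Itgav and Itga1 without control mouse 1 (0.106 and 0.0719), and that of Itgav also without cKO mouse 1 (0.0774) or with no sex term (0.0934).

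Levels of different chains were compared as FPKM, which is CPM per kilobase of gene length. The lengths are those of the deposited table, from 2770 bases for Itgb7 to 13978 for Itga4 and 18599 for Itga1. The order of the chains depends on them. In activated cells Itgb7 (58.4 to 78.8 FPKM), Itgal (58.4 to 71.8 FPKM) and Itgb2 (57.3 to 67.3 FPKM) stood at the top with overlapping ranges. Itgb1 (20.0 to 28.2 FPKM), Itga4 (12.2 to 19.1 FPKM) and Itga6 (8.24 to 10.7 FPKM) followed, each apart from its neighbours. Itgae (3.57 to 7.65 FPKM) and Itgav (4.20 to 5.45 FPKM) overlapped. Itga2 (0.138 to 0.294 FPKM) and Itga1 (0.0248 to 0.0306 FPKM) came last. In rested cells Itgb7 stood alone at the top (156 to 169 FPKM). Itgal (47.6 to 61.5 FPKM), Itga4 (44.7 to 51.0 FPKM) and Itgb2 (42.9 to 52.8 FPKM) followed with overlapping ranges. Below these, Itgb1 (16.3 to 30.7 FPKM) overlapped with Itga6 (23.3 to 26.9 FPKM) and with Itgae (10.9 to 22.1 FPKM), which did not overlap each other. Itgav (3.36 to 3.66 FPKM), Itga2 (0.755 to 1.38 FPKM) and Itga1 (0.0523 to 0.181 FPKM) followed without overlap. By median, Itga4 thus had rank 5 of 10 in activated and rank 3 of 10 in rested cells.

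Ratios of alpha to beta transcripts set each beta chain beside its followed partners at the RNA level. The size of a ratio depends on the gene lengths used, while the relative change of a ratio of 2 chains between states does not. Itgal over Itgb2 was 1.07 ± 0.08 in activated and 1.10 ± 0.05 in rested libraries (SD, n = 5 each), with full overlap. Itga4 over Itgb7 was 0.235 ± 0.029 in activated and 0.298 ± 0.014 in rested libraries, with no overlap, since Itga4 fell further than Itgb7. Itgae over Itgb7 was 0.0863 ± 0.0293 in activated and 0.0985 ± 0.0301 in rested libraries and overlapped. The wider shift was around Itgb1. Itga4 over Itgb1 was 0.691 ± 0.176 in activated and 2.19 ± 0.59 in rested libraries, and Itga6 over Itgb1 was 0.400 ± 0.073 in activated and 1.14 ± 0.32 in rested libraries, neither with overlap. Summed, the 5 alpha chains followed here that can join Itgb1 (Itga4, Itga6, Itgav, Itga2 and Itga1) stood at 1.30 ± 0.25 times Itgb1 in activated and 3.54 ± 0.95 times in rested libraries. Further alpha chains, such as Itga5 and Itga10, are not in this sum. Itgb7 over Itgb1, the 2 beta chains that share Itga4, was 2.94 ± 0.63 in activated and 7.35 ± 1.96 in rested libraries. Within the sum of the followed alpha chains of Itgb1 and Itgb7, Itgav made 13.0% ± 2.5 in activated and 3.75% ± 0.09 in rested libraries, again without overlap. Itga4 remained the most abundant of these alpha chains, at 44.3% ± 5.1 in activated and 51.4% ± 3.6 in rested libraries. Itgav and Itga4 also join other beta chains, and transcript ratios do not give the protein pairs.

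**Figure D3:**
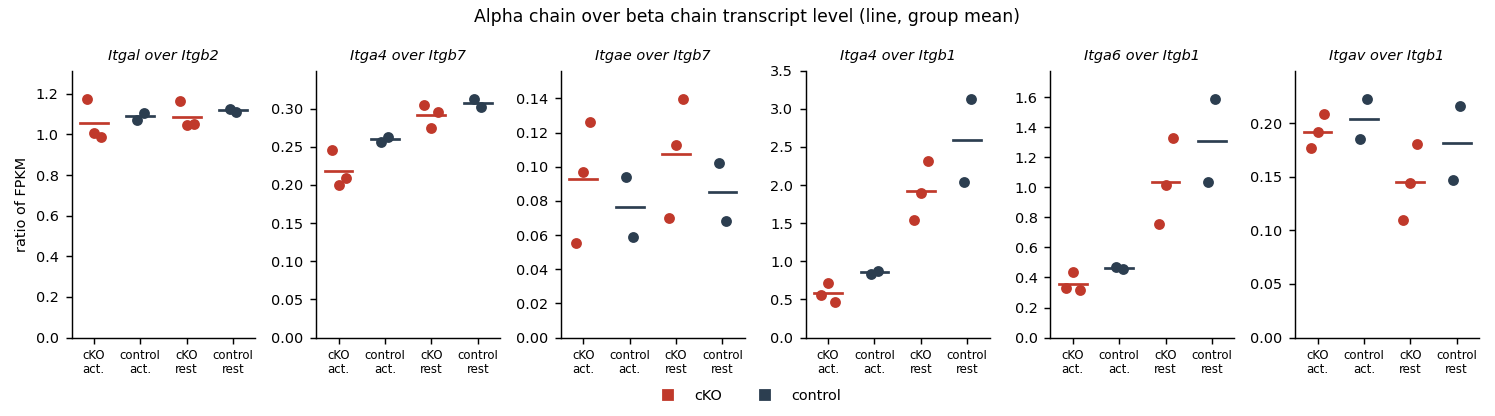
Ratio of alpha to beta chain FPKM in each library (points) with group means (lines), for activated cKO, activated control, rested cKO and rested control cells; each panel has its own vertical axis from 0. Itgal over Itgb2 lies near 1 in all groups, while Itga4 and Itga6 over Itgb1 lie lower in every activated than in every rested library.

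Deletion of Dusp2 was not followed by a called change in any of the 10 chains, in either state. In edgeR's quasi-likelihood test 0 chains were called in activated and 0 in rested cells, where 0.0422% of all genes, 8 genes, were called in each state (0.0264% higher and 0.0158% lower in both). At an unadjusted p below 0.05 there were 2 chains in activated cells, Itga4 and Itgav, and 1 in rested cells, Itga1, where 6.02% of all genes (1142) and 4.13% (783) were below it. DESeq2's Wald test called 0 chains in both states, among 21 and 29 genes called in all. edgeR without a filter on low counts called 1 chain in each, among 211 and 204 genes, Itga4 in activated cells (adjusted p = 1.66e-05) and Itgae in rested cells (adjusted p = 0.0325). A p above the threshold does not show that the genotypes are alike, and the standard errors below give the size of difference that 3 against 2 mice could resolve.

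Itga4 differed most in activated cells. Its 3 activated cKO libraries, at 170.3 to 221 CPM, lay below both activated control libraries, at 245 and 267 CPM. The log2 fold change was -0.35 (SE 0.08; unadjusted p = 0.000996, adjusted p = 0.481, edgeR's quasi-likelihood test), and -0.24 without cKO mouse 3. In rested cells the same order held, with 624 to 662 CPM in cKO and 695 and 713 CPM in control libraries and a log2 fold change of -0.14 (SE 0.08), which ran from -0.27 without control mouse 1 to -0.06 without control mouse 2. Between male mice alone the activated difference was -0.28 and between the 2 females -0.52 on the log2 scale. Groups of 3 and 2 libraries did not overlap in 16.9% of all genes in activated cells (9.24% with cKO lower, 7.71% with cKO higher) and in 17.5% in rested cells (8.22% with cKO lower), so that non-overlap of this kind was common. Itga4 lies 48.0 Mb from Dusp2 on chromosome 2, Itgav 43.5 Mb and Itga6 55.5 Mb, and both genotypes carried the floxed Dusp2 allele.

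Itga1 was higher in all 3 rested cKO libraries, at 1.96 to 3.36 CPM, than in both rested control libraries, at 0.972 and 1.72 CPM. The log2 fold change was 0.85 (SE 0.26; unadjusted p = 0.00689, adjusted p = 1, edgeR's quasi-likelihood test), 1.80-fold. It was 0.83 without cKO mouse 3, 0.67 between males and 1.01 between the 2 females. Non-overlap with cKO higher was seen in 9.32% of all genes in rested cells. In activated cells Itga1 averaged 0.532 ± 0.037 CPM over cKO and 0.480 ± 0.027 CPM over control libraries (SD, n = 3 and 2), a log2 fold change of 0.08 (SE 0.32), and -0.12 without cKO mouse 3. Of 14 tested markers of NK and innate-like lymphocytes, 10 were higher in rested cKO than in rested control cells, with a median log2 fold change of 0.75 beside 0.0038 over all genes, and none was called. Their summed level was 202 to 287 CPM in rested cKO and 226 to 249 CPM in rested control libraries and so overlapped. In activated cells too 10 of the 14 were higher in cKO, with a median of 0.57 and none called, and their sums were 123 to 185 CPM in cKO and 99.3 to 142 CPM in control libraries. In each state 6 of the 14 had an unadjusted p below 0.05 in edgeR's quasi-likelihood test, namely Klra3, Klra7, Klra9, Klre1, Gzma and Eomes. Of all genes, 6.02% in activated and 4.13% in rested cells were below it. Their part in the Itga1 difference was not tested.

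The other 8 chains overlapped between genotypes in both states. In activated cells Itgav averaged 52.4 ± 6.7 CPM over cKO and 46.7 ± 1.7 CPM over control libraries (0.18, SE 0.08; unadjusted p = 0.0431, adjusted p = 0.821, edgeR's quasi-likelihood test), and 0.09 without cKO mouse 3. Itgb1 was at 104 ± 13 CPM in activated cKO and 87.6 ± 8.2 CPM in activated control libraries (0.21, SE 0.19; 0.03 without cKO mouse 3), and at 101 ± 22 CPM in rested cKO and 82.9 ± 23.1 CPM in rested control libraries (0.25, SE 0.19). For the LFA-1 chains the differences were small: Itgal 0.05 (SE 0.11) in activated and 0.08 (SE 0.11) in rested cells, and Itgb2 0.11 (SE 0.08) and 0.13 (SE 0.08). Without cKO mouse 3 the Itgb2 difference in activated cells was 0.02. Itgb7 was at 186 ± 29 CPM in activated cKO and 196 ± 16 CPM in activated control libraries (-0.09, SE 0.09). Itgae had the widest errors, at 0.18 (SE 0.52) in activated and 0.30 (SE 0.50) in rested cells, and at -0.24 and -0.23 without cKO mouse 3. In both states the male cKO mouse 1 was below the male control mouse and the male cKO mouse 2 above it, with a mean difference of -0.42 in activated and -0.21 in rested cells on the log2 scale. Between females, 1 mouse against 1, cKO was higher by 0.91 and 0.94. The genotype by activation interaction was called for 0 of 18966 genes in edgeR's quasi-likelihood test, and 519 genes (2.74%) and 0 of the 10 chains had an unadjusted p below 0.05. DESeq2's Wald test called 3 genes. The largest interactions among the chains were -0.76 (SE 0.41) for Itga1 and -0.21 (SE 0.12) for Itga4, which ran from -0.28 without control mouse 2 to -0.09 without cKO mouse 3, and Dusp2 itself had -0.68 (SE 0.11; adjusted p = 0.248, edgeR's quasi-likelihood test).

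**Figure D4:**
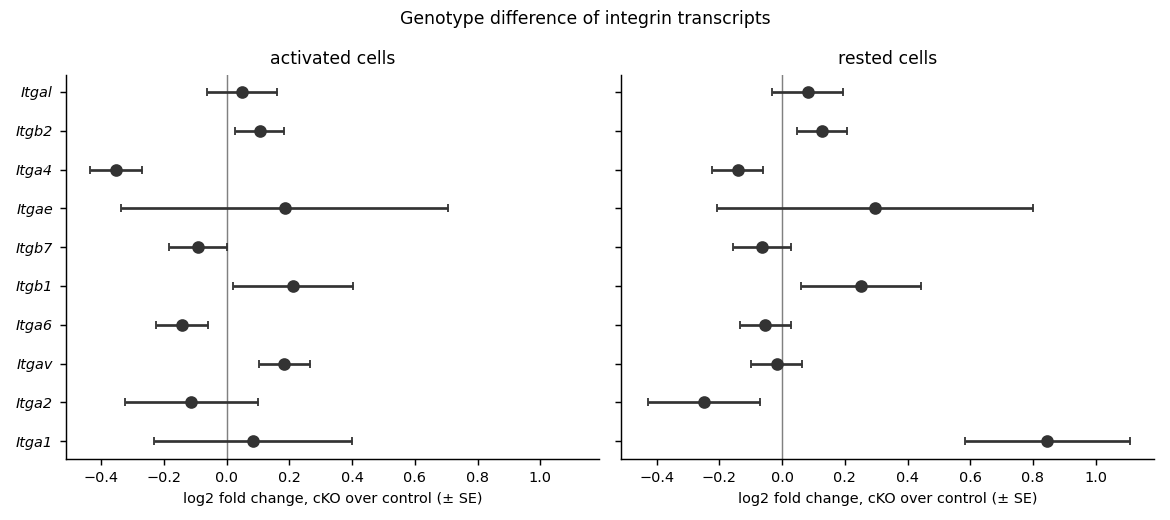
Log2 fold change of each integrin transcript, cKO over control, in activated cells (left) and rested cells (right); bars are ± SE of the fit and both panels share the horizontal axis. Itga4 in activated cells (-0.35) and Itga1 in rested cells (0.85) lie farthest from 0 relative to their SE, and no chain was called in either state.

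Related genes are set beside the background of activation, in which 34.8% of all genes were called higher and 34.3% lower. Of 16 further integrin chains 11 were tested, 7 fell and 1 rose, with a median log2 fold change of -0.47 beside -0.00381 over all genes. Itgb3, the beta chain of the vitronectin receptor and a partner of Itgav, fell 4.29-fold and stood at 3.57 to 5.97 CPM in activated and 16.6 to 29.3 CPM in rested libraries (-2.10, SE 0.21; adjusted p = 2.42e-05, edgeR's quasi-likelihood test). Itga10, a collagen-binding chain, fell 1.62-fold, Itga2b, the platelet fibrinogen receptor chain, 1.38-fold, and Itga5, the fibronectin receptor chain, 1.21-fold. Itgax, the CD11c partner of Itgb2, was the one that rose, at 0.860 to 2.52 CPM in activated and 0.156 to 0.820 CPM in rested libraries (adjusted p = 0.000278, edgeR's quasi-likelihood test). Itgb8 and Itgb6, the other beta partners of Itgav for latent TGF-beta, were not tested, with at most 0.0857 and 0.0334 CPM in any library.

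A further list holds 37 genes that switch integrins on or off or tie them to the cytoskeleton. Of these 32 were tested, 23 fell and 5 rose, with a median of -0.57, where 34.3% of all genes fell and 34.8% rose. Since the list includes genes that restrain integrins, such as Sipa1, Rap1gap and Sharpin, its counts are not counts of activators. The fallers included Rasgrp2 (CalDAG-GEFI, which loads the GTPase RAP1), 3.83-fold lower at 60.5 to 88.4 CPM in activated and 258 to 308 CPM in rested libraries (adjusted p = 3.67e-07, edgeR's quasi-likelihood test). The adaptors Fyb (ADAP) and Skap1, which carry the signal from the T cell receptor to RAP1, fell 2.62-fold and 2.11-fold. Prkd2, a protein kinase D, fell 2.17-fold. Tln1 (talin) fell 1.60-fold and Fermt3 (kindlin-3) 1.35-fold, both named beside the rule because they bind the beta chain tail. The risers were led by Parvg, a parvin of the integrin-linked kinase complex, 1.69-fold higher at 103 to 128 CPM in activated and 59.4 to 66.5 CPM in rested libraries. Ptk2b (PYK2, a focal adhesion kinase) rose 1.52-fold, Rapgef1, another exchange factor for RAP1, 1.27-fold, and Rap1a itself 1.25-fold, all with adjusted p at or below 0.000103 by edgeR's quasi-likelihood test.

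Of 25 ligand and membrane partner genes, 19 were tested, 11 rose and 6 fell, with a median of 0.66, where 34.8% of all genes rose and 34.3% fell. Icam1, a ligand of LFA-1 that T cells also carry, rose 3.35-fold and stood at 203 to 231 CPM in activated and 54.2 to 68.6 CPM in rested libraries (adjusted p = 1.68e-12, edgeR's quasi-likelihood test). Icam5, another ICAM best known from neurons, was at 7.10 to 8.92 CPM in activated and 0.134 to 0.352 CPM in rested libraries, 33.6-fold higher. Icam2, the ICAM of resting lymphocytes and endothelium, fell 1.64-fold, so the ICAM genes did not move as 1 group. The tetraspanins divided likewise: Cd82 rose 2.50-fold and Cd53 1.58-fold, and Cd151, the tetraspanin that binds laminin receptors, fell 1.54-fold. Cdh1 (E-cadherin, the ligand of alphaE beta7) fell 4.82-fold from low levels, at 0.660 to 1.61 CPM in activated and 2.53 to 8.67 CPM in rested libraries. Cd226 (DNAM-1), which associates with LFA-1, fell 1.66-fold. Jam2 and Madcam1 are among the genes called higher, but they had only 3 and 1 counts in all rested libraries together, and no fold is given.

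TGF-beta induces Itgae. Of 21 genes of its pathway and of the transcription factors around Itgae, 20 were tested, 14 fell and 4 rose, with a median of -0.77, where 34.3% of all genes fell and 34.8% rose. Tgfbr3 (betaglycan, a co-receptor) fell 2.81-fold, at 7.77 to 12.1 CPM in activated and 21.7 to 27.0 CPM in rested libraries. Smad7 and Smurf1, which turn the receptor signal off, fell 2.54-fold and 2.46-fold (both with adjusted p at or below 7.03e-08, edgeR's quasi-likelihood test). Skil (SnoN, a SMAD co-repressor) rose 1.55-fold, Tgfb1 1.23-fold, and Cbfb, the partner of RUNX proteins, 1.15-fold. Deletion of Dusp2 was followed by 0 called genes in any of these 4 lists in either state (edgeR's quasi-likelihood test). At an unadjusted p below 0.05 there were 0, 2, 1 and 3 genes in activated and 1, 0, 3 and 0 in rested cells, in the order in which the lists are given here, beside 1142 and 783 of all 18966 genes.

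**Figure D5:**
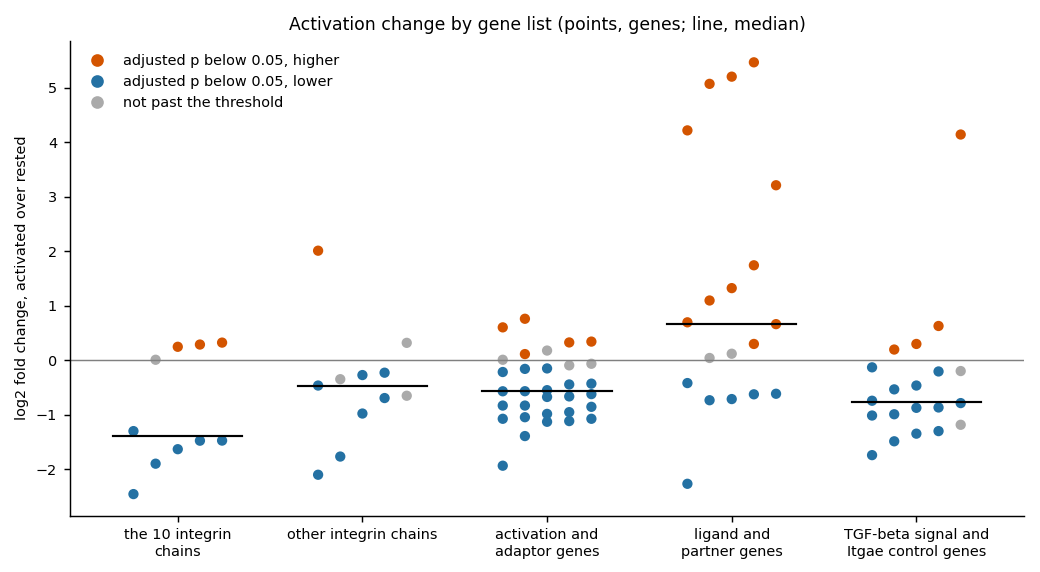
Log2 fold change, activated over rested and averaged over both genotypes, of each tested gene of the 10 integrin chains and of 4 related lists (orange, called higher; blue, called lower; grey, not past the threshold; line, median of the list). Medians lie at -1.39, -0.47, -0.57, 0.66 and -0.77 from left to right, beside -0.00381 over all genes.

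As a description of likeness, each chain was set against 10408 tested genes of at least 5 CPM over the 10 libraries, which share the same mice and 2 states. Over log2 CPM the most alike genes were Rassf1 for Itgb7, Depdc1b for Itga4 and Srgap2 for Itga6, each with Pearson r = 0.999. In all, 2276, 2155 and 2231 genes had r above 0.95 with these 3 chains, in the same order, so the likeness is mainly the split by state. Itgae and Itgb1 had few such neighbours, 14 and 1, led by Gm11613 (r = 0.977) and Hip1 (r = 0.969). The other best matches were Rab11fip4 for Itga2 (r = 0.996), Snai3 for Itga1 (0.991), Snx18 for Itgal (0.985), Apool for Itgav (0.984) and Luzp1 for Itgb2 (0.981). Over deviations from the 4 group means, which take the state and genotype out, they were Prkcq for Itgb7 (r = 0.995), Krba1 for Itga4 (0.993), Zfp773 for Itga2 (0.990), Atxn1 for Itgal (0.989), Txnl1 for Itgav (0.987), Creb1 for Itga6 (0.985) and Plekha2 for Itgb1 (0.985). The remaining 3 were Antxr2 for Itgb2 (0.976), Eps8l1 for Itgae (0.976) and Pdcd1lg2 for Itga1 (0.971). By this measure 111 genes had r above 0.95 with Itgb7 and 4 with Itgae, the most and the fewest among the 10 chains. Each best match is the highest r over 10408 genes, and the deviations do not take sex out. Among the chains themselves, deviations of Itga1 and Itgb1 ran together (r = 0.958), as did those of Itgal and Itgb1 (0.853), and those of Itgav and Itgb7 ran opposite (-0.913). Those of the 2 control mice mirror each other within a state.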

How the data were processed

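RNA of splenic CD8+ T cells was made into libraries from 100 ng of total RNA with a stranded mRNA kit, per the labels' protocols. Subread, FastQC, MultiQC and the build mm39 are named in the submitters' processing notes, without versions, and whether counting used the strand is not stated there. The authors deposited raw counts per gene and FPKM per gene. The deposited FPKM follow from the counts, the gene length and the column total within a relative deviation of 9.4e-07, so both units rest on the same reads. The 1 row without a gene name held 1.03e-06% of the counts and stayed in the library totals.

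Counts were fitted with edgeR 4.0.16 in R 4.3.3, using TMM factors, the filterByExpr filter on groups and the robust quasi-likelihood test on a model of 4 group means and sex over all 10 libraries. The p-values were adjusted over 18966 genes by the Benjamini-Hochberg method, and genes below 0.05 were called. Each SE was computed back from the test (the log2 fold change divided by the root of the F statistic) and is not the fit's own. Common biological variation (BCV) was 9.14%, and 5 residual degrees of freedom remained. The 6 comparisons were activated against rested (mean, cKO, control), cKO against control (activated, rested) and the interaction. CPM are counts over library totals and carry no sex adjustment, while the fitted changes do. Mice are separate animals, and precision is set by 3 and 2 mice and, for Itga1, by its 28 to 172 counts per library. Between libraries of a group, chi-square per gene was 9.24 to 46.2, above sampling noise, so each counted as a sample.

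The members and lists were chosen with earlier results of these data known. Genes of the lists were named by rule: up to 4 called genes per direction with the highest and lowest log2 fold change among those averaging 5 CPM or more in either state. Tln1, Fermt3, Itgax, Itgb6, Itgb8, Jam2 and Madcam1 fall outside it and were picked with their values in view. Of the genes that the rule names, 1 is not reported here. The best match of a member was the gene of at least 5 CPM with the highest Pearson r, over log2(CPM + 0.01) and over deviations from group means. Promoters came from RefSeq's table for GRCm38.p6, while all gene positions are those of the deposited table (mm39).

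The rested and activated libraries of a mouse pair by animal. After subtracting group means, the 2 libraries of a mouse correlated over genes at 0.404, 0.223 and 0.471 in the cKO mice and at 0.504 in the control mice, which mirror each other. Sex was not taken out of these values, and none is given for libraries of different mice. In a fit with sex, the shared correlation of a mouse's libraries was estimated at -0.135. Alternatives were DESeq2 size factors, library totals (added after seeing the data), 2 other low-count filters, no sex term, mouse blocks, DESeq2 1.42.0, limma 3.58.1 on log2(FPKM + 0.5) and log2(FPKM + 0.1), fitting only the groups compared, and leaving out each mouse. The fit was tested on simulated data. Tables and figures were made with Python 3.11.15.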

Additional observations from a re-analysis of the deposited data

Results flagged for a closer look

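The change of Itgb1 with activation had opposite signs in the sexes. Within mice the log2 ratio of activated to rested CPM was 0.30 and 0.37 in the 2 females (mean 0.333) and between -0.12 and -0.09 in the 3 males (mean -0.104), so that the female mean exceeded the male mean by 0.437. Both females moved up and all 3 males moved down. With a sex effect per state, a fit added after seeing the data, the difference was 0.46 (SE 0.24; adjusted p = 0.42, edgeR's quasi-likelihood test), so it was not called. That fit held no mouse term, so it did not use the pairing of libraries by mouse, and its SE includes the spread between mice. The females include cKO mouse 3, whose titles conflict with its other labels. Sex cannot be told apart from what the leading number of the mouse names marks.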

How the results depend on the processing

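Over 125 results of the 9 chains called with activation (mean of both genotypes) under the alternatives tried, 125 kept their direction and 120 their call. The 5 exceptions are Itgae and Itgal without single mice, given with their values beside the results. The 30 chain ratios were also computed from CPM and length in place of FPKM. The deposited FPKM follow from the same counts and lengths, so the same ratios had to come out. This was no check of the ratios against other processing. The median log2 fold change of all genes with activation was 0.0124 with DESeq2 size factors and 0.062 with library totals, beside -0.00381 with TMM. Of 42 reversed values none was called in either fit. On the log2(FPKM + 0.5) and log2(FPKM + 0.1) scales, which understate the change of low genes, the activation change of Itga1 in control cells was -0.12 and -0.44 and not called (adjusted p = 0.131 and 0.0643, limma).

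Itgb1 stayed near 0 and its sign was not stable. With activation over both genotypes it was -0.01028 with no sex term and ran from -0.07985 to 0.1229 when each mouse was left out. In cKO cells it was 0.009818 with DESeq2 size factors, 0.05416 with library totals, 0.006339 with no filter, 0.01071 with the stricter filter, 0.01013 with DESeq2, 0.04785 with FPKM + 0.5 and 0.04882 with FPKM + 0.1, and ran from -0.1843 to 0.09005 when mice were left out. In control cells that range was -0.1569 to 0.239.

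Leaving out each mouse also turned signs of differences that were not called. For cKO against control in activated cells the ranges were -0.1168 to 0.2031 for Itga1 (-0.0009363 with FPKM + 0.5), -0.2792 to 0.08995 for Itga2, -0.3511 to 0.972 for Itgae and -0.03124 to 0.139 for Itgal. In rested cells they were -0.2323 to 0.8551 for Itgae, -0.02357 to 0.144 for Itgal, -0.1144 to 0.07498 for Itgav and -0.2027 to 0.03605 for Itgb7. For the interaction they were -0.2547 to 0.5931 for Itga2, -0.204 to 0.0651 for Itga6, -0.2266 to 0.1169 for Itgae, -0.1223 to 0.09315 for Itgal, -0.2321 to 0.1541 for Itgb1, -0.1343 to 0.06573 for Itgb2 and -0.1392 to 0.1083 for Itgb7. The cause was not tested.

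Counts of genes called moved most between genotypes. In activated cells 8 became 211 with no filter, 5 with the stricter filter, 21 with DESeq2, 4 with FPKM + 0.5, 5 with FPKM + 0.1, 5 with only the groups compared, and 6 to 49 when mice were left out. In rested cells 8 became 204 with no filter, 5 with the stricter filter, 29 with DESeq2, 5 with FPKM + 0.5, and 7 to 25 when mice were left out. The interaction went to 39 with no filter, 3 with DESeq2, and 0 to 3 when mice were left out. With no filter 1 chain was called in each state, Itga4 in activated and Itgae in rested cells. Activation in control cells gave 10631 called genes, and 6981 to 10646 when mice were left out, lowest without control mouse 2. The cause was not tested.

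With mouse as a replicate block, activation called 12937 genes in the mean, 11840 in cKO and 10352 in control cells, with 9 chains called in each. Itgal in cKO and Itgal and Itgae in control cells gained their call, and no other call of a chain changed. For the interaction the block called 0 genes. Between genotypes a fixed mouse block cannot be fitted, so limma's voom fit with a shared correlation of a mouse's libraries took its place. That correlation was estimated at -0.135. This fit called 7 genes in activated and 10 in rested cells, none of them a chain.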

Other observations

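Further genes of the same lists, picked with their values in view, moved with activation as follows, with adjusted p from edgeR's quasi-likelihood test. From the list around TGF-beta and Itgae, Tgfbr2, Smad3, Smad4 and Runx3 stood lower in every activated than in every rested library. Tgfbr2, the signalling receptor, was at 215 to 248 CPM in activated and 357 to 375 CPM in rested libraries (1.67-fold lower; adjusted p = 3.98e-09). Smad3, its effector, was 1.82-fold lower (adjusted p = 1.29e-09), and Smad4, the common partner of SMAD proteins, 1.99-fold lower (adjusted p = 2.84e-10). Runx3, a RUNX factor of the CD8 lineage that acts on Itgae, was at 103 to 118 CPM in activated and 187 to 205 CPM in rested libraries (1.83-fold lower; adjusted p = 4.1e-10). Others of the list moved less: Tgfbr1, the partner of Tgfbr2, fell 1.15-fold (adjusted p = 0.00726) and Smad2 1.09-fold (adjusted p = 0.00938), and neither was called in both genotypes read alone, while Cbfb rose 1.15-fold. Prdm1 (BLIMP1) and Zfp683 (HOBIT), transcription factors of tissue-resident T cells, were not called (adjusted p = 0.257 and 0.177), and Zfp683 reached at most 0.334 CPM in any library.

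Lrrc32 (GARP), which tethers latent TGF-beta to the cell surface for release by Itgav integrins, was at 1.03 to 2.06 CPM in activated and 0 to 0.254 CPM in rested libraries, with 485 and 24 counts in all (adjusted p = 0.000156). Both RAP1 effectors on the list, Apbb1ip (RIAM) and Rassf5 (RAPL), fell 1.78-fold, while the RAP1 gene Rap1b rose 1.08-fold (adjusted p = 0.0418). Among cytoskeletal linkers, Vcl (vinculin) and Pxn (paxillin) were not called, at 0.18 (SE 0.09) and -0.07 (SE 0.04) on the log2 scale.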
